A study of Gallus gallus with 4 samples.

Results

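Condensin is a ring-shaped ATPase complex that folds chromatin into compact mitotic chromosomes. Its core pair of ATPases, SMC2 and SMC4, is common to condensin I and condensin II, whereas the kleisin subunit CAP-H, which closes the ring, belongs to condensin I. In birds Z is the large sex chromosome, present with W in females and as a pair in males. Its centromere, like that of chromosome 5, is known to lack the tandem repeats found at most vertebrate centromeres, so the sequence there can be assembled and reads can be placed on it. The regions described here are the condensin peaks of the Z chromosome, taken as every row of the deposited SMC2 and CAP-H peak lists whose chromosome column reads chrZ. They number 220 of 10843 peaks: 126 of 6474 SMC2 peaks and 94 of 4369 CAP-H peaks.

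The peaks came from DT40, a chicken B cell lymphoma line of female origin, in which either subunit had been knocked out and replaced by a transgene with an SBP tag that binds streptavidin. All cells received 2 ng/ml doxycycline, which shut off the untagged copy of that subunit, and were held in mitosis with 500 ng/ml nocodazole before fixation in 1% formaldehyde. The labels list 4 libraries, a streptavidin pull-down and an input without antibody for the SBP-tagged SMC2 cells and the same pair for the SBP-tagged CAP-H cells; the peak lists belong to the pull-downs. Each group held 1 library, so intervals cover counting error only, treat neighbouring peaks as independent, and give no replicate check. Coordinates are in galGal4 and count from 1. Read depth is unknown, since the lists hold no reads, and the number of Z copies in these cells was not measured. The SMC2 list carries a score for each peak, the authors' own value, and the CAP-H list carries none. The gene for SMC2 itself lies on Z in the RefSeq table of another assembly, GRCg7b, but its position in galGal4 was not at hand.

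The first question was where along Z the peaks lie. SMC2 peaks were crowded into the far end of the chromosome. CAP-H peaks were spread along its whole length, but they too were denser at that end, to a lesser degree. From 72 Mb to the highest listed coordinate, 82361963, there were 82 SMC2 peaks, 65.1% of those on Z, and 24 CAP-H peaks, 25.5%. That stretch of 10.4 Mb held 7.91 SMC2 peaks and 2.32 CAP-H peaks per Mb. In the 72 Mb before it there were 44 SMC2 peaks, 0.611 per Mb, and 70 CAP-H peaks, 0.972 per Mb. The number of SMC2 peaks for each CAP-H peak was thus 3.42 in the far stretch and 0.629 in the rest. The boundary at 72 Mb was set after the positions were seen, so these values are a description. The lists come from separate libraries of unknown depth and cutoff, so a difference in counts between them cannot be told apart from those of the libraries.

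The opposite end showed the reverse balance. The first SMC2 peak on Z began at 8247892, whereas the first CAP-H peak ran from 66842 to 67571. The first 8 Mb held 13 CAP-H peaks and no SMC2 peak. A count of 0 of 126 has an upper limit of 2.38% if set at 3 counts, or 2.89% by the Clopper-Pearson interval. The 8 Mb stretch stops just short of the first SMC2 peak, however. Its count of 0 follows from where it was cut, so neither limit tests anything. The 13 CAP-H peaks were small, from 501 to 1405 bp wide with a median of 742 bp, and 8 of them were more than 7 Mb from any SMC2 peak. Over the first 25 Mb, 10 SMC2 and 25 CAP-H peaks were listed, and none of either overlapped the other list. That stretch, too, stops before the next SMC2 peak, at 25457636, and before the first overlapping pair, from 27126555. The lack of overlap there is thus a description.

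**Figure D1:**
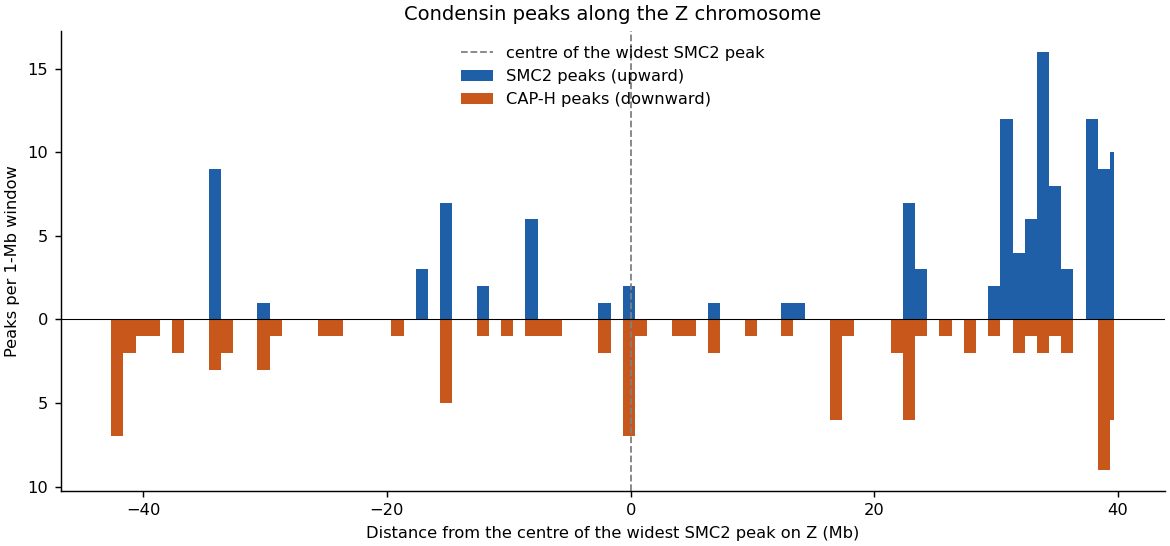
Peaks per 1-Mb window of Z, SMC2 upward and CAP-H downward, against the distance in Mb from the centre of the widest SMC2 peak (dashed line). The last window is shorter than 1 Mb. SMC2 reaches its highest count, 16, near the right-hand end and has no peak in the leftmost 8 Mb, where CAP-H has 13.

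Of 83 windows of 1 Mb, 38 held no peak of either list. SMC2 was absent from 60 windows and CAP-H from 42. In 22 windows CAP-H peaks occurred without SMC2 peaks, in 4 windows SMC2 peaks occurred without CAP-H peaks, and 19 windows held both. By count, the richest windows began at 76000001, with 16 SMC2 and 2 CAP-H peaks, and at 81000001, with 9 of each. They were followed by the last, partial window from 82000001, with 10 SMC2 and 6 CAP-H peaks, and by the window from 65000001, with 7 and 6. Windows from 8000001, 27000001, 73000001 and 80000001 tied for the next place with 12 peaks each. The tied windows differed in make-up. Those from 73000001 and 80000001 held 12 SMC2 peaks and no CAP-H peak, whereas the window from 27000001 held 7 and 5.

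Crowding of peaks near an end was also seen on other large chromosomes. On Z, the last 10 Mb, 12.1% of the length, held 65.1% of SMC2 peaks and 25.5% of CAP-H peaks. On chromosome 4, the first 10 Mb held 46.1% of SMC2 peaks and 46.0% of CAP-H peaks. On chromosome 5, where 10 Mb is 16.8% of the length, the first 10 Mb held 35.5% of SMC2 peaks, and the richer end for CAP-H was the last 10 Mb with 22.5%. On chromosomes 1, 2 and 3 the richer end held 8.37%, 10.3% and 25.3% of SMC2 peaks. For CAP-H those ends held 6.25%, 10.4% and 18.3%. As a share of its own peaks, Z was thus the highest of these 6 chromosomes for SMC2, while for CAP-H chromosome 4 was higher. By count, the first 10 Mb of chromosome 4 held more SMC2 peaks than the last 10 Mb of Z, 111 against 82. A stretch of 10 Mb is 5.13%, 6.72%, 9.05% and 11.1% of the length of chromosomes 1 to 4. The shares are therefore not like for like.

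Compared with macrochromosomes 1 to 5 as a class, Z had 0.591 times as many SMC2 peaks per Mb (95% exact conditional interval 0.489 to 0.710) and 0.594 times as many CAP-H peaks (0.476 to 0.734). SMC2 density on Z, 1.53 peaks per Mb, was close to that of chromosome 3, 1.58, with a ratio of 0.971 (0.766 to 1.23), an interval that includes 1. CAP-H density on Z, 1.14 per Mb, was 0.746 times that of chromosome 3 (0.573 to 0.965). SMC2 peaks covered 277 kb of Z, 0.337% of its length, and CAP-H peaks 143 kb, 0.173%. On macrochromosomes 1 to 5 the covered shares were 0.367% and 0.343%. The CAP-H peaks of Z were narrower, with a median of 910 bp against 1402.5 bp on macrochromosomes. For SMC2 the median width was 1270.5 bp on Z and 1087 bp on macrochromosomes, or 973 bp without chromosome 2. Single macrochromosomes ran from 895 bp on chromosome 3 to 1359 bp on chromosome 2, a range that includes Z. The count ratio of the lists was 1.34 SMC2 peaks per CAP-H peak on Z (1.02 to 1.77) and 1.35 on macrochromosomes (1.25 to 1.45). The macrochromosome value was 1.19 (1.09 to 1.30) without chromosome 2, and single chromosomes ran from 1.03 on chromosome 3 to 1.84 on chromosome 2. With SMC2 peaks scoring 100 or more alone, the density ratio was 0.742 (0.499 to 1.07), an interval that includes 1. An alternative added with the values known left out the first and last 10 Mb of every chromosome. The density ratio was then 0.251 (0.174 to 0.352) for SMC2 peaks of any score and 0.494 (0.366 to 0.654) for CAP-H peaks. Beyond 72 Mb, by contrast, the 7.91 SMC2 peaks per Mb of Z were above the density of 2.59 over whole macrochromosomes. Ends of other chromosomes were dense too. The last 10 Mb of Z held 82 SMC2 peaks, against 111 in the first 10 Mb of chromosome 4 and 76 in that of chromosome 5.

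**Figure D2:**
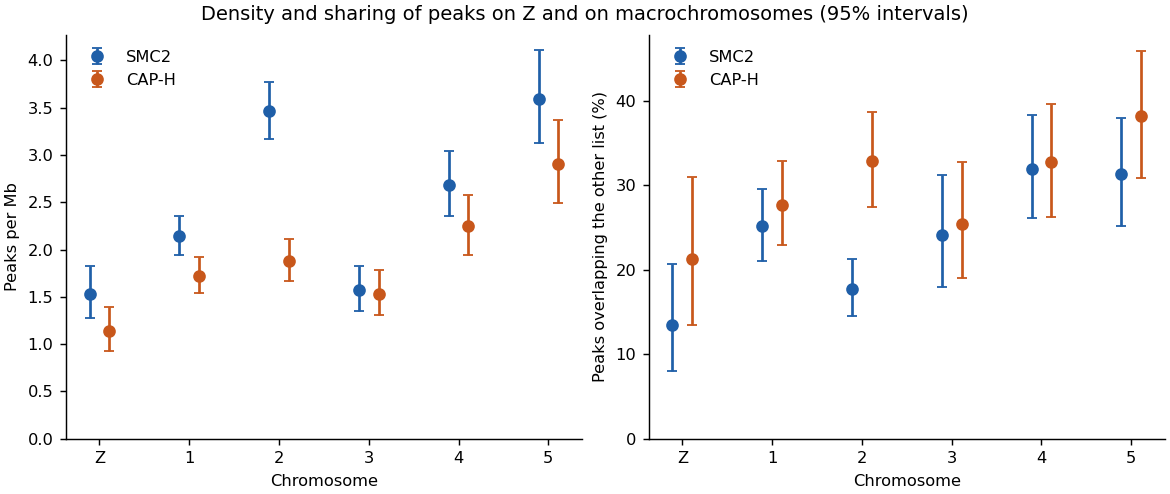
Peaks per Mb (left) and the percentage of peaks that overlap the other list (right) on Z and on chromosomes 1 to 5. Points are values of 1 library per subunit and bars are exact 95% intervals for counting error. Z lies lowest in every series, with 1.53 SMC2 and 1.14 CAP-H peaks per Mb, and sharing of 13.5% for SMC2 and 21.3% for CAP-H. In each series its interval overlaps that of the next lowest chromosome, which is not a test of a difference. For CAP-H density the ratio of Z to chromosome 3 was 0.746 (0.573 to 0.965), an interval that excludes 1.

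The second question was what lies at the widest site of Z. The widest SMC2 peak spanned 31.3 kb between 42623493 and 42654744 and had its centre 51.8% of the way along the listed length. Its score was 2808.02, the 15th highest of the 6474 SMC2 peaks, and its width was the 2nd largest. It was 2.75 times as wide as the next widest SMC2 peak on Z and 24.6 times the median width there. It alone made up 11.3% of all the bases in SMC2 peaks on Z. A small SMC2 peak of 971 bp followed 523 bp beyond its end, with a score of 74.60.

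CAP-H covered the same block in pieces. There were 7 CAP-H peaks between 42616579 and 42651757, a span of 35.2 kb, and 5 of them overlapped the wide SMC2 peak and covered 81.7% of it. In order along the chromosome they measured 1355, 3058, 8997, 13310, 1959, 764 and 1855 bp. The pair of widest pieces stood only 67 bp apart, and the gaps between the 7 pieces ran from 67 to 1292 bp. The CAP-H block began 6.91 kb before the SMC2 peak and stopped 2.99 kb before its end, so the blocks were offset towards lower coordinates for CAP-H. Together the 7 pieces made up 21.9% of all bases in CAP-H peaks on Z.

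**Figure D3:**
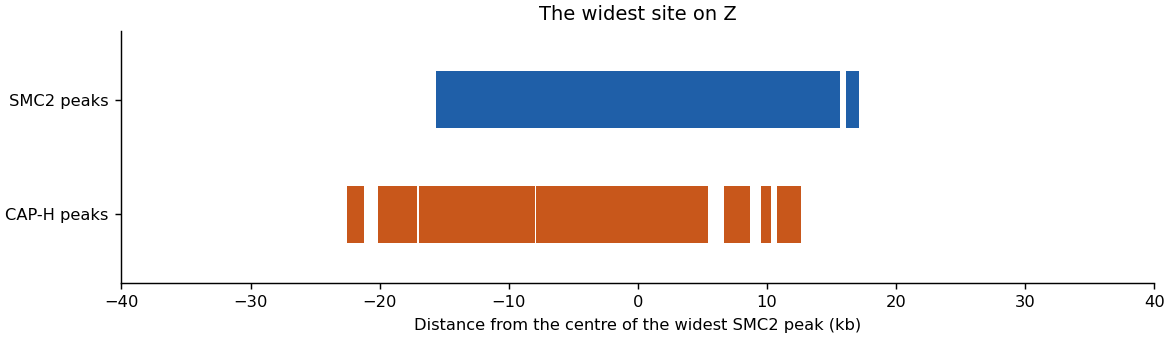
Extent of each peak around the widest SMC2 peak on Z, by distance in kb from its centre. A single SMC2 peak of 31.3 kb is followed by a small one of 971 bp, and 7 CAP-H peaks span 35.2 kb, shifted to the left.

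Within 500 kb of the site on either side there was no peak of either list other than these 9, which spanned 39.7 kb. The nearest CAP-H peaks beyond the block lay 1.88 Mb before it, ending at 40738262, and 621 kb after it, from 43277478. The nearest SMC2 peaks beyond it lay 2.25 Mb before, ending at 40368281, and 6.64 Mb after, from 49294588. Empty flanks were not particular to this site. The clusters from 65127296 to 65176388 and from 66303970 to 66350809 also had no other peak within 500 kb. Along Z, 25 gaps between peaks of either list were longer than 1 Mb. The widest SMC2 site of chromosome 5, from 3065817 to 3106172 and 40.4 kb wide, overlapped 4 CAP-H peaks and had 5 SMC2 and 7 CAP-H peaks within 500 kb, itself included. On chromosomes 1 to 4 the widest SMC2 peaks measured 6.18 to 9.25 kb. The position of the centromere in this build was not at hand, so whether the Z or the chromosome 5 site coincides with it was not tested.

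The third question was how the peaks score. The score has the form of a MACS score, minus 10 times the log10 of p, but nothing in the file says so. SMC2 scores on Z fell into a high and a low class with nothing between. There were 5 peaks with scores from 1653.14 to 3100, and the other 121 scored from 50.25 to 197.95. On macrochromosomes 1 to 5, by contrast, 78 of 1562 SMC2 peaks scored between 200 and 500 and 21 scored at least 500. The 5 high peaks of Z lay at 3 places: the widest site, a locus near 27 Mb and a locus near 66 Mb.

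Near 27 Mb strong SMC2 peaks and CAP-H peaks had nearly the same edges. The highest score on Z, 3100, which is also the maximum of the whole list and is shared there by 14 peaks, belonged to an SMC2 peak of 8425 bp from 27165565 to 27173989. A CAP-H peak from 27165585 to 27173973 lay wholly inside it, with edges 20 and 16 bp in. The SMC2 peak from 27126555 to 27129944, with a score of 1778.69, likewise enclosed a CAP-H peak from 27126717 to 27129716. A weaker SMC2 peak nearby, from 27132657 to 27135335 with a score of 83.67, overlapped a CAP-H peak of 847 bp by 647 bp. The cluster as a whole spanned 47.4 kb and held 4 SMC2 and 3 CAP-H peaks.

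Near 66 Mb strong SMC2 peaks had no CAP-H counterpart. The SMC2 peak from 66303970 to 66308706 scored 1653.14 and its neighbour from 66311344 to 66315837 scored 2130.53, with 2637 bp between them. The nearest CAP-H peak lay 34.1 kb beyond the pair, from 66349921 to 66350809, and the nearest on the other side was 1128 kb away. A 3rd SMC2 peak, from 66348473 to 66349361 with a score of 73.58, stopped 559 bp short of that CAP-H peak. On other placed chromosomes 110 SMC2 peaks scored 500 or more and all 110 overlapped CAP-H, and in the whole list only 3 of 130 such peaks did not. The pair near 66 Mb made up 2 of those 3, the other being on unplaced sequence. With 1 library for each subunit, whether the pair would recur was not tested. The SMC2 gene lies on Z too, as given above, and whether the pair lies at it was not tested, because its position in galGal4 was not at hand.

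**Figure D4:**
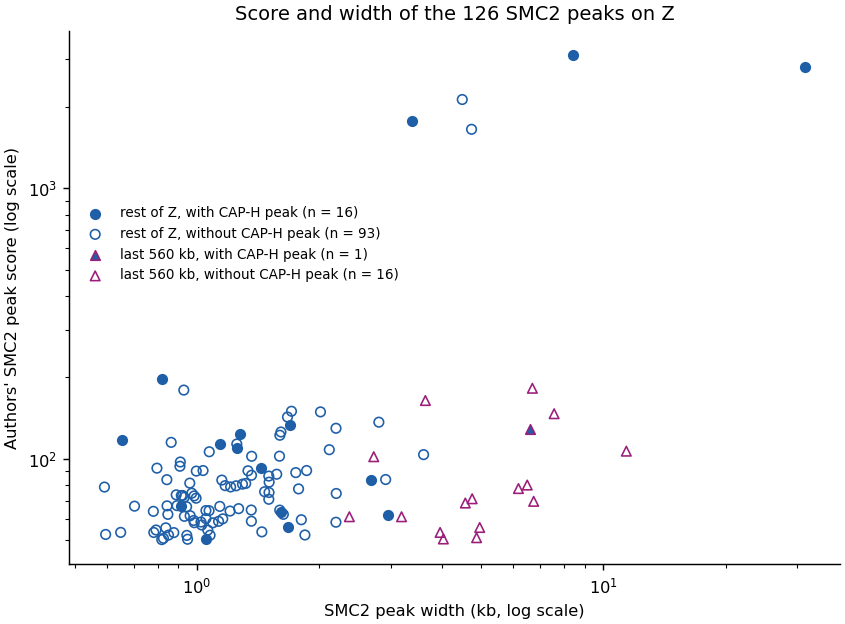
The authors' SMC2 score against peak width for the 126 SMC2 peaks on Z, both on log scales. Filled symbols overlap a CAP-H peak, open symbols do not, and triangles are the peaks of the last 560 kb. The 5 peaks at the top score 1653.14 or more, while the triangles are wide and score at most 182.28.

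Width and score parted at the end of the chromosome. In the last 560 kb, a stretch set after the widths were seen, 17 SMC2 peaks had a median width of 4874 bp, from 2371 to 11385 bp, and scores from 50.53 to 182.28. They covered 16.2% of that stretch. Of these 17 peaks, 15 were at least 3 kb wide, against 6 of the 109 SMC2 peaks before it. In the whole SMC2 list 373 of 6474 peaks, 5.76%, were that wide, with a median score of 264, whereas the 15 wide peaks at the end of Z had a median score of 71.14. Wide peaks of low score were also common elsewhere. Scores under 200 were found in 157 of the 373, in 44 of 91 such peaks on macrochromosomes 1 to 5, and in all 15 at the end of Z. The widest of these 15 ran from 82208586 to 82219970, with a score of 106.70. The final cluster, from 82140677 to 82269296, held 9 of these SMC2 peaks with 2 CAP-H peaks. CAP-H had 7 peaks in the same 560 kb, from 1272 to 3078 bp wide, and just 1 overlapped SMC2. At the ends of chromosomes 1 to 5, over the same length, the median SMC2 width ran from 725 to 3522 bp, with the highest value in the 7 peaks at the start of chromosome 4. The first 560 kb of Z held no SMC2 peak and 2 CAP-H peaks.

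The fourth question was how peaks cluster. When peaks of either list were linked across gaps of at most 50 kb, 20 clusters of 3 or more peaks formed. They held 88 SMC2 peaks, 69.8% of those on Z, and 34 CAP-H peaks, 36.2%, within 1.47 Mb in all, or 1.78% of the length. No cluster was made of CAP-H alone, 7 were made of SMC2 alone and 13 held both. Of the 20, 14 lay beyond 72 Mb. Median spacing differed accordingly, at 27.5 kb between neighbouring SMC2 peaks and 295 kb between neighbouring CAP-H peaks. With the upper 50% of SMC2 scores 10 clusters formed.

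The clusters differed in how far the subunits coincided. The cluster with most shared peaks was one of 13 peaks from 65127296 to 65176388, where 6 of 7 SMC2 and 5 of 6 CAP-H peaks overlapped the other list. Its SMC2 scores were modest, from 55.88 to 123.05. In the cluster from 8247892 to 8345379, by contrast, 9 SMC2 peaks in 97.5 kb had no CAP-H peak among them. The next CAP-H peak there began 75.4 kb further on, and the previous one ended 2.40 Mb before. The cluster from 81513672 to 81613244 had the opposite make-up, with 7 CAP-H and 2 SMC2 peaks and 1 overlap. Towards the far end, the cluster from 76845388 to 76928121 held 6 SMC2 peaks and that from 80324841 to 80511369 another 6, all without CAP-H. The clusters from 76101772 and from 76263688 held 5 and 4 SMC2 peaks with 1 CAP-H peak each. The cluster from 34251703 to 34276613 held 4 SMC2 peaks and 1 CAP-H peak, which overlapped. The cluster from 81920304 to 82053331 held 7 SMC2 and 2 CAP-H peaks with no overlap.

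**Figure D5:**
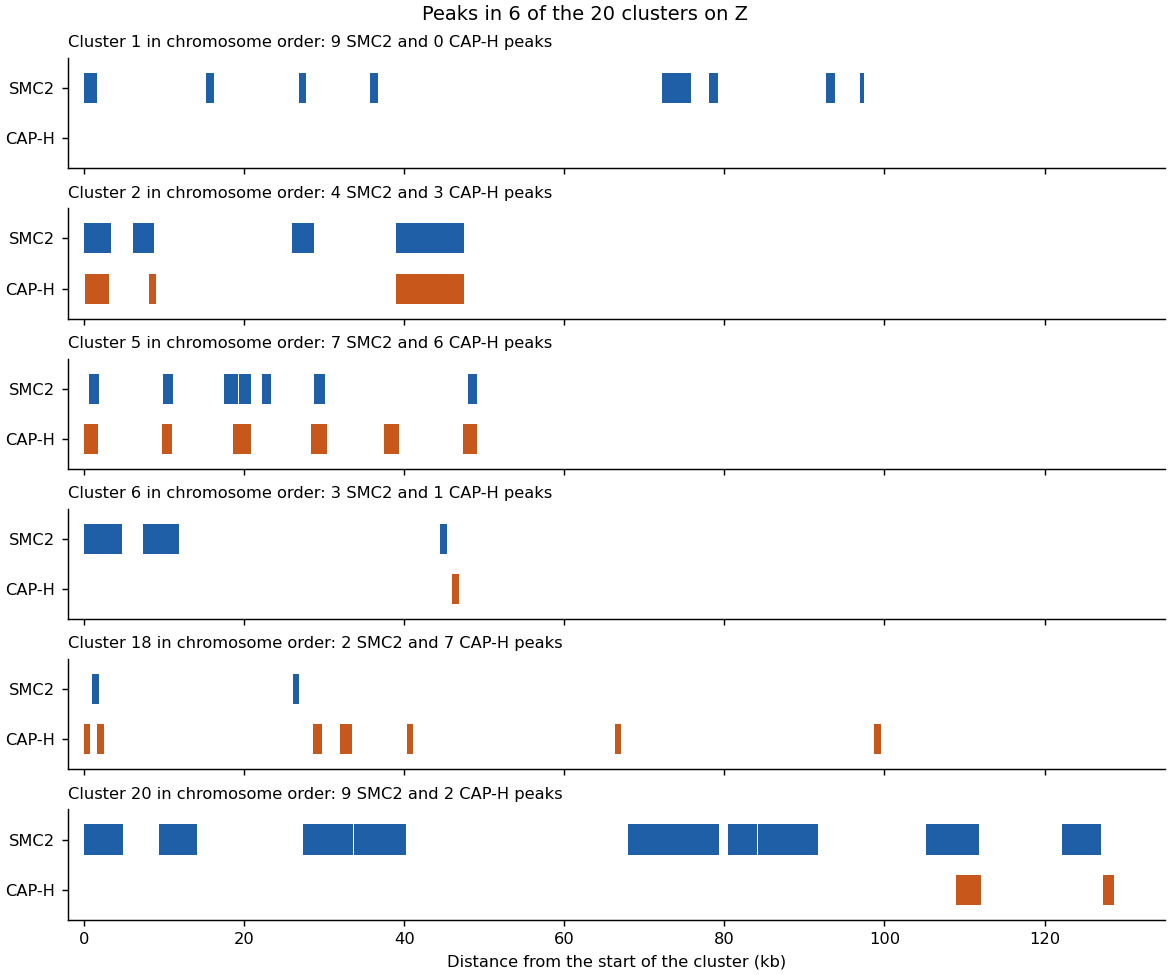
Extent of the peaks in 6 of the 20 clusters, numbered in chromosome order, by distance in kb from the start of each. Cluster 1 holds 9 SMC2 peaks and no CAP-H peak, cluster 5 pairs 6 of 7 SMC2 peaks with CAP-H, and cluster 18 holds 7 CAP-H peaks to 2 of SMC2.

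Between the clusters were long empty stretches. The longest without a peak of either list measured 5.40 Mb, from 18032300 to 23429324. The next were 4.06 Mb from 36307445, 3.79 Mb from 60407177, 3.61 Mb from 13525562 and 3.44 Mb from 43278292, which begins beyond the widest site. Gaps longer than 1 Mb numbered 25 and took up 73.3% of the length. For SMC2 alone the longest gap was 12.7 Mb, from 12780098 to 25457635. Of CAP-H peaks, 4 lay inside it.

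The last question was how far the lists overlap on Z. Counting any overlap from 1 bp upward, 17 of 126 SMC2 peaks had a CAP-H partner. This was 13.5% (exact 95% Clopper-Pearson interval 8.06 to 20.7), against 31.0% of the whole SMC2 list. In the other direction, SMC2 partners were found for 20 of 94 CAP-H peaks, 21.3% (13.5 to 30.9), against 42.4% of the whole CAP-H list. The odds that an SMC2 peak was shared were 0.325 times those on all other placed chromosomes (exact conditional interval 0.182 to 0.547). For CAP-H the odds were 0.355 times (0.204 to 0.591). Against macrochromosomes 1 to 5 the odds were 0.482 times for SMC2 (0.267 to 0.820). For CAP-H they were 0.601 times (0.342 to 1.01), an interval that includes 1. Among single macrochromosomes, the nearest to Z for SMC2 was chromosome 2 with 17.7% shared (14.5 to 21.2). For CAP-H it was chromosome 3 with 25.4% shared (19.1 to 32.7). Both intervals overlap those of Z, which is not a test of a difference.

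The low sharing of SMC2 was uneven along Z. Beyond 72 Mb, 5 of 82 SMC2 peaks were shared, or 6.10%, and before it 12 of 44, or 27.3%. For CAP-H the shares were 5 of 24, or 20.8%, and 15 of 70, or 21.4%. A further comparison left out the far stretch of Z but kept the other placed chromosomes whole, ends included. The odds of an SMC2 peak being shared were then 0.782 times those on the other chromosomes (0.366 to 1.56), an interval that includes 1. Since only Z was cut, and after its positions were seen, this is a description. For CAP-H the odds in the same comparison stayed at 0.358 times (0.187 to 0.645). The far stretch held 24 CAP-H peaks to 82 SMC2 peaks, and the part of that imbalance in the low SMC2 share was not tested.

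Sharing was concentrated at a few loci. The clusters near 27 Mb, at the widest site and near 65 Mb, which spanned 136 kb in all, held 10 of the 17 shared SMC2 peaks and 13 of the 20 shared CAP-H peaks. They were picked as the clusters with most shared peaks, so these counts are a description. Of the 13 CAP-H peaks, 5 overlapped the single widest SMC2 peak. Elsewhere, an SMC2 peak of 819 bp from 40367463 to 40368281, with a score of 197.95, lay wholly within CAP-H from 40367194 to 40368290. The SMC2 peak from 74917931 to 74918584, with a score of 117.56, lay wholly within a CAP-H peak of 878 bp. The SMC2 peak from 72988817 to 72990511 lay inside the 2nd widest CAP-H peak of Z, 10.3 kb between 72986043 and 72996338. The remaining shared SMC2 peaks began at 34265494, 76186023, 81514646 and 82245832, with overlaps of 207 to 2779 bp. Outside the widest site there were 16 overlapping pairs. Their centres were a median of 299.5 bp apart, from 2 to 2060.5 bp, and in 10 of them the overlap made up at least 50% of both peaks.

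Shared peaks on Z had higher scores than unshared ones, with a median of 113.25 against 72.90 for SMC2. The same contrast was 108.36 against 67.99 in the whole list and 95.09 against 63.26 on macrochromosomes. Among SMC2 peaks scoring 100 or more, 10 of 32 were shared, and 7 of 94 below that score. These shares were 31.3% (16.1 to 50.0) and 7.45%. A rise with score was also present in the whole list, where 58.8% of SMC2 peaks scoring 100 or more and 19.8% of those below were shared, and on macrochromosomes, with 54.7% and 16.8%. For CAP-H the median width was 1824 bp in shared and 869.5 bp in unshared peaks of Z, beside 1858 and 1177 bp in the whole list, and 7 of the 10 widest CAP-H peaks of Z were shared. Of the 10 widest SMC2 peaks 3 were shared, and 8 of these 10 lay in the last 560 kb. At a cutoff of 1 kb, unshared peaks were seldom near misses: 2 of 109 unshared SMC2 peaks and 3 of 74 unshared CAP-H peaks lay that close to the other list. Within 10 kb there were 10 SMC2 and 10 CAP-H peaks, and within 50 kb 28 and 19. The median distance to the other list was 111 kb for unshared SMC2 peaks and 716 kb for unshared CAP-H peaks.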

How the data were processed

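Reads of 50 bp were aligned with BWA to galGal4, per the submitters' processing notes. Names in the deposited lists follow the form of MACS peaks, per the file contents; which version, background library and cutoff the authors used is not stated. The SMC2 score is the authors' own value per peak, and its scale is not stated; it ranked or filtered SMC2 peaks only. Deposited starts were taken to count from 0 and were printed counted from 1. The lists do not state this, so printed starts and widths rest on that reading. The profiles around gene starts have no value for Z alone and were not used, nor were input files.

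Peaks were placed by their centre. Shares have Clopper-Pearson intervals, count ratios and odds ratios exact conditional intervals, all at 95%. Chromosome length was the highest coordinate in either list. The overlap step was tested on simulated peaks, and merging and linking on a small made-up set of intervals. Regions named were the 10 highest-scoring SMC2 peaks, the 10 widest of each list, shared peaks, peaks within 500 kb of the widest site, the 5 richest windows and longest gaps with ties, and clusters of 5 or more; those not listed singly are given as counts or ranges. The members, lists and rules were chosen with earlier results of these data known. Python 3.11.15, numpy 2.4.6, pandas 2.3.3, scipy 1.17.1 and matplotlib 3.10.9 were used.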

Additional observations from a re-analysis of the deposited data

How the results depend on the processing

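No paired analysis was possible because each subunit had 1 pull-down library. Of 56 alternative values for 15 results, 45 were classed as unchanged and kept their direction. Among these 45 were SMC2 density ratios outside the main interval of 0.489 to 0.710. They were 0.724 with the upper 50% of SMC2 scores, and 0.233 and 0.251 without chromosome ends. When the overlap had to reach 50% of both partners, the Z share was 7.94% for SMC2 and 10.6% for CAP-H, and the median width of shared over unshared SMC2 peaks turned from 1.29 to 0.988. With SMC2 scores of at least 100, 31.3% of SMC2 peaks were shared and the SMC2 density of Z over macrochromosomes was 0.742 (0.499 to 1.07), which includes 1. In settings chosen after seeing the data, peaks before 72 Mb gave an SMC2 share of 27.3% and odds of 0.782, while the SMC2 density ratio was 0.233 (0.169 to 0.315) without the last 10 Mb of every chromosome, 0.251 (0.174 to 0.352) without the first and last 10 Mb, and 0.665 without chromosome 2. With the upper 50% of SMC2 scores 10 clusters formed instead of 20. Links of at most 20 kb gave 14 clusters and links of at most 100 kb gave 22, both classed as unchanged. The longest empty stretch was 12.7 Mb for SMC2 alone, and merging CAP-H peaks within 1000 bp widened their widest site from 13.3 to 25.6 kb. The window with the highest count held 34 peaks per Mb at 500 kb against 18 at 1 Mb. Windows were ranked by count, so the last, partial window, which was denser, was not scaled to its length. Except for these, the causes of which were not tested, all alternatives were classed as unchanged. Depth is unknown, so peaks missed for lack of reads cannot be counted.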
